A study of Mus musculus with 6 samples.

Results

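Long non-coding RNAs (lncRNAs) with clear expression in mouse testis are described here. They were chosen as rows of the deposited gene table that carry the biotype lncRNA and reach a mean of at least 5 FPKM (reads or fragments counted on a gene, scaled by its length and the library's depth) over all 6 libraries. The small nucleolar RNA host genes named Snhg, Gas5 and the imprinted lncRNAs H19, Meg3, Rian, Mirg, Kcnq1ot1, Airn and Peg13 were left out by name, which removed 11 rows at that level. This left 63 members of 9949 lncRNA rows and of 55850 gene rows in all. Members were thus chosen by their level averaged over both groups, so their levels are a description, while the rule did not use the difference between the groups directly. The libraries were bulk RNA of whole testis from mice, 3 labelled WT and 3 labelled CKO (here cKO, conditional knockout), with no treatment in either group. By the series title the knockout removes SRSF2, an SR protein that acts in splicing, from Sertoli cells, which support the germ cells within the tubules. No source used here names the Cre driver, the deleted part of the gene, the strain or the age. None says that each library is a separate animal either, and p-values then cover only the spread among libraries, which may be technical.

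An lncRNA is a transcript longer than a microRNA precursor or snoRNA that is not known to be translated. Some act in the nucleus, as scaffolds of nuclear bodies or as regulators of the gene beside them, some act in the cytoplasm by binding proteins or microRNAs, and some matter mainly for the small RNAs cut from their introns or exons. The testis is known as an organ that transcribes many lncRNAs, a large share of them in meiotic and later germ cells, and many start next to a protein-coding gene and share its promoter.

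The libraries held 16070287 to 17281330 reads recovered from the FPKM values. Srsf2, the targeted gene, stood at 127, 96.7 and 102 FPKM in the WT and 74.0, 87.3 and 87.3 FPKM in the cKO libraries, with a log2 difference of -0.38 (limma adjusted p = 0.384). All 15 Sertoli markers were above a mean of 1 FPKM. Their summed level was 1649 to 2141 FPKM in WT and 1184 to 1374 FPKM in cKO libraries, and 9 of the 15 were lower in every cKO than in every WT library, as were 9.92% of all genes tested. Of 8 spermatid markers 7 lay below a mean of 1 FPKM. Summed endothelial markers (81.4 to 91.3 FPKM in WT, 73.1 to 79.9 FPKM in cKO) and stromal markers (984 to 1040 FPKM, 786 to 983 FPKM) also did not overlap, while the sums for germ cells, Leydig cells, peritubular myoid cells, macrophages and red blood cells did. Taken singly, 2 of 6 endothelial and 1 of 6 stromal markers were lower in every cKO library, beside the same 9.92% of all genes. So were 1 of 5 tested peritubular myoid and 2 of 7 macrophage markers. Higher in every cKO library were 2 of 8 general germ cell and 1 of 6 tested spermatogonial markers. The same held for 1 of 7 Leydig and 1 of 6 red blood cell markers, beside 8.69% of all genes. 18S ribosomal RNA took 1.58 to 2.09% of a WT library's reads and 0.727 to 0.835% of a cKO library's. Mitochondrial genes took 1.66 to 1.98% and 2.39 to 2.97%, the groups being separated in the other direction. WT replicate 1 stood apart, being the highest of the 6 libraries for 26.9% of the 14238 genes tested and the lowest for 28.0%.

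The level of the members ran from 5.01 to 108 FPKM, with a median of 8.68 FPKM. Only 1 member exceeded 100 FPKM, 13 reached 20 FPKM and 35 lay between 5 and 10 FPKM. Together they took 0.219 to 0.251% of a WT library's reads and 0.212 to 0.246% of a cKO library's, and all lncRNA rows took 0.771 to 0.823% and 0.740 to 0.810%, so the ranges of the groups overlapped. On average over the libraries a member was covered by 40 to 5751 reads, with a median of 250.5. The 3 members nearest the limit were Gm15389, Rab26os and Cerox1, at means of 5.11, 5.08 and 5.01 FPKM. For 10 members the mean of 1 group lay below 5 FPKM, of WT for 4 and of cKO for 6, so these entered through the group where they are higher. Just outside the limit lay Gm37963, Gm20457 and BC051226, at 4.99, 4.97 and 4.95 FPKM.

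The most abundant member was AU020206, an intergenic lncRNA on chromosome 7 (75769038 to 75782099 of GRCm38, minus strand). It measured 92.1, 101 and 116 FPKM in the WT and 105, 117 and 117 FPKM in the cKO libraries. Its groups overlapped, with a log2 difference of 0.14 (95% interval -0.17 to 0.45). Norad, which binds Pumilio proteins and guards chromosome stability, was the next. It was also the steadiest of the abundant members, at 60.4, 61.0 and 61.7 FPKM in WT and 58.4, 57.2 and 58.2 FPKM in cKO libraries. Each cKO library lay below each WT library by a small margin, 94.98% of the WT mean, and the log2 difference of -0.07 had a 95% interval from -0.31 to 0.17.

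Below these stood 2410006H16Rik at a mean of 56.5, Gm10076 at 38.9, Gm35533 at 37.1, Gm2044 at 34.8 and Malat1 at 33.5 FPKM. Epb41l4aos followed at a mean of 29.7, Oip5os1 at 26.1, Gm49172 at 23.9, Gm17201 at 23.7, C430049B03Rik at 23.4, AI506816 at 21.2, 1110038B12Rik at 18.01 and Gm45889 at 17.04 FPKM. Of the 63 members 27 carry Gm symbols and 16 carry Rik symbols. The plot of levels shows every library of every member.

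**Figure D1:**
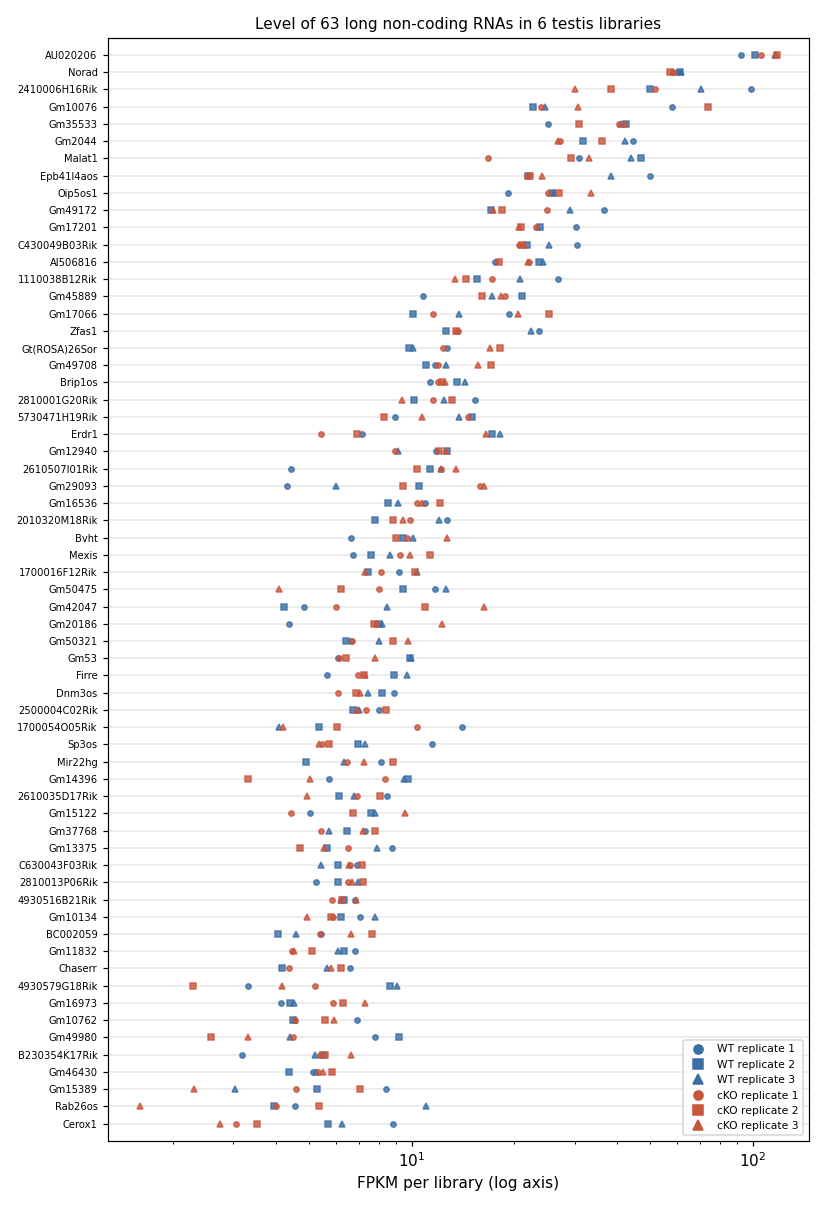
FPKM of each of the 63 members (rows, by mean level) in the 3 WT and 3 cKO libraries on a log axis; each point is a library. Levels run from AU020206, at a mean of 108 FPKM, to Cerox1, at 5.01 FPKM, and for most members the colours of the groups are mixed.

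Against protein-coding genes the members were short and had few exons. Their median gene length was 1610 bases against 4409 bases for 12355 protein-coding genes tested, and their median exon number, for the annotated transcript with most exons, was 3 against 9. Their median GC content was 48.3% against 50.4%. Of the 63, 62 were found by identifier in the GENCODE M21 annotation of GRCm38. There 27 were intergenic, 15 processed transcripts, 14 antisense, 2 bidirectional promoter lncRNAs and 1 sense intronic, while 3 (Erdr1, Gm10134 and Gm10762) were protein coding. For 27 members some exon bases are also exon of another annotated gene, and since the use of strand in counting is not given, reads there cannot be assigned. The overlap was 81.4% of the exon bases of Gm20186 (with Gm26809), 71.8% of Gm12940 (with Sfpq and Zmym1) and 59.5% of Gm17201 (with Ankrd52). All shares of exon bases given here are of GENCODE M21 exons, and the gene models counted for the deposited table can differ. Gm10134, for example, spans 28506095 to 28506475 in GENCODE M21 but has a length of 1679 bases in the deposited table.

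No member passed the test between cKO and WT testis. The test was limma, its variance trended on the mean, on log2(FPKM + 1), adjusted over the 14238 genes with a mean of at least 1 FPKM, and a value called a log2 difference is cKO minus WT on that scale. At an adjusted p below 0.05 it called 0 of 63 members, where 0.014% of all genes tested were called in either direction and 0.00702% in each. Of the 543 lncRNA rows tested, members included, 1 was called, and it is not a member. The lowest adjusted p of a member was 0.307, for Cerox1. At an unadjusted p below 0.05, 5 members were higher and 8 lower, where 4.65% and 7.68% of all genes were. Limma voom on recovered reads also called 0 members, with 12 at an unadjusted p below 0.05. The median log2 difference of the members was -0.07, with 36 negative and 27 positive, against 0.00 over all genes tested, of which 49.2% were negative. The middle of the distribution was wider, from -0.36 to 0.20 between the quartiles of the members and -0.17 to 0.16 over all genes.

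**Figure D2:**
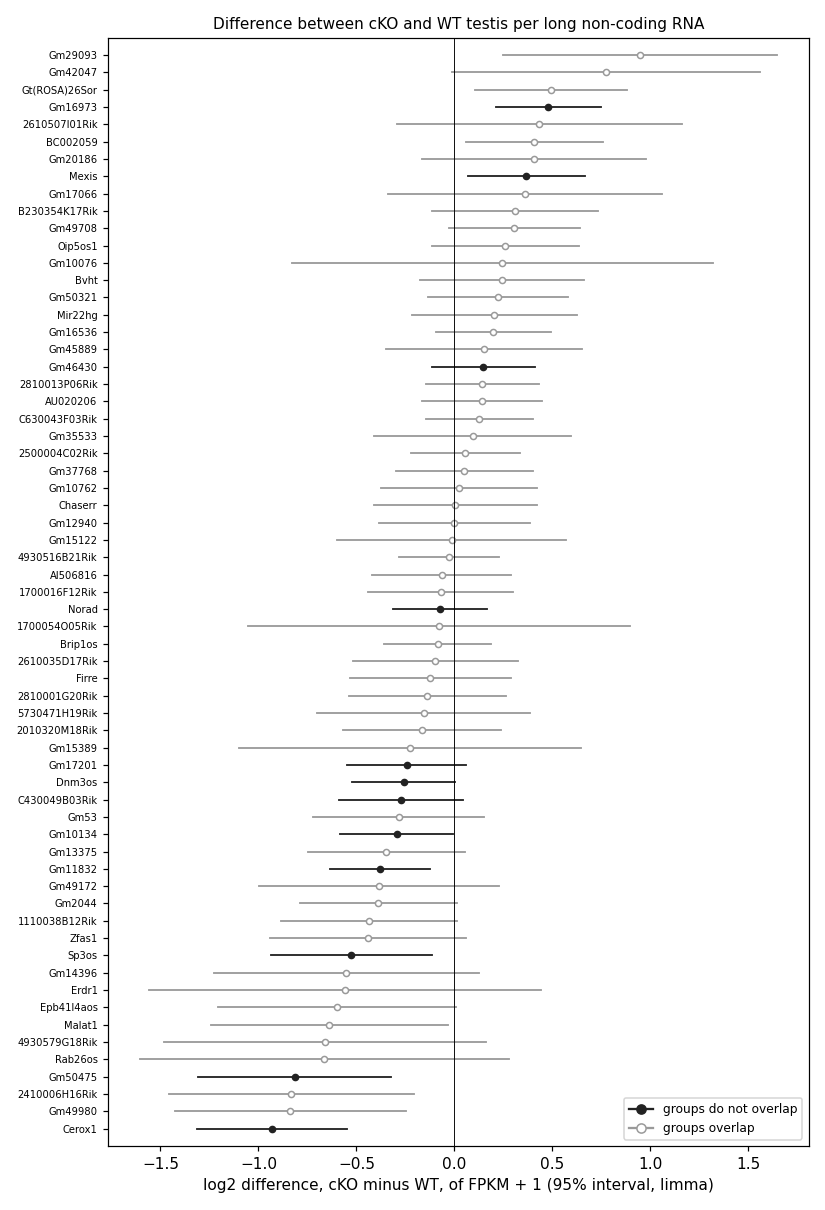
Log2 difference (cKO minus WT, FPKM + 1) with its 95% limma interval for each of the 63 members, ordered by size; filled points mark members whose WT and cKO libraries do not overlap. Differences run from -0.93 for Cerox1 to 0.95 for Gm29093, and 0 of them passed the adjusted threshold.

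The libraries of the groups did not overlap for 12 of 63 members, 9 lower and 3 higher in cKO. Over all genes tested every cKO library lay below every WT library for 9.92% and above for 8.69%, and the members' 19.05% in either direction is near the 18.6% of all genes. Over the 543 lncRNA rows tested, members included, the share was 14.2%. With 3 libraries against 3 the smallest exact two-sided permutation p is 0.1, which each of these 12 has. All values given for them are therefore differences that did not pass. Among the 12, Cerox1, Gm11832, Gm16973 and Gm46430 reached the limit only through their higher group, so their differences are in part set by the choice and support nothing further. The counts also moved with the libraries used, to 9 higher and 17 lower without WT replicate 1, to 5 and 17 without WT replicate 2, and to 12 and 14 without cKO replicate 1. Without WT replicate 3 the count of higher members was 8, and without cKO replicate 2 it was 5. On the TPM scale it was also 8. With a library left out, fewer libraries have to be separated, so such counts rise more easily for any gene. The share over all genes under these settings is not given here, so the moved counts are not read as a trait of the members.

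Cerox1 was the member with the largest of these differences. It encodes a cytoplasmic lncRNA known to raise the level of transcripts for subunits of mitochondrial complex I. It measured 8.79, 5.69 and 6.27 FPKM in the WT and 3.06, 3.53 and 2.74 FPKM in the cKO libraries. These came from 297, 203 and 217 reads in WT and 111, 132 and 95 reads in cKO. The cKO mean was 45.0% of the WT mean, and the log2 difference was -0.93 (SE 0.17, 95% interval -1.31 to -0.55, limma adjusted p = 0.307). Leaving out each library in turn gave -1.04 to -0.77, with limma adjusted p from 0.156 to 0.842. The share of mitochondrial reads was higher in every cKO library, as given above, and its part in this difference was not tested.

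Cerox1 lies on chromosome 17 at 25570358 to 25575043, plus strand, and its start overlaps that of Sox8 on the opposite strand, with 15.5% of its exon bases shared. Sox8 encodes a transcription factor of the Sox9 group that Sertoli cells express. It measured 16.3, 20.2 and 19.5 FPKM in WT and 21.5, 17.8 and 18.5 FPKM in cKO libraries, with a log2 difference of 0.04 (95% interval -0.25 to 0.34, limma adjusted p = 0.898). The libraries of Sox8 overlapped while those of Cerox1 did not.

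Gm50475 was the next lowest of the non-overlapping members. It measured 11.7, 9.44 and 12.6 FPKM in the WT and 8.02, 6.22 and 4.08 FPKM in the cKO libraries, on 34 to 105 reads, with a log2 difference of -0.82 (SE 0.21, limma adjusted p = 0.372). Leaving out cKO replicate 3 gave -0.59 and leaving out cKO replicate 1 gave -1.01. This gene is not in GENCODE M21 under its identifier. In the positions of the deposited table, which are of another build, it overlaps the start of Tmem200b on the opposite strand. The share of exon bases in this overlap was not computed, and since the use of strand is not given, shared reads cannot be assigned. Tmem200b, a transmembrane protein gene chosen here after its values were seen, measured 24.2, 21.1 and 23.4 FPKM in WT and 18.2, 14.1 and 14.7 FPKM in cKO libraries, so the members of this pair were lower in the same libraries (log2 difference of Tmem200b -0.53, limma adjusted p = 0.361).

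Sp3os, antisense to the start of the transcription factor gene Sp3, measured 11.5, 6.95 and 7.29 FPKM in WT and 5.45, 5.73 and 5.36 FPKM in cKO libraries. WT replicate 1 was far above the other WT libraries, and without it the log2 difference of -0.53 was -0.32. Sp3 itself measured 27.1, 30.3 and 32.5 FPKM in WT and 31.3, 36.0 and 38.9 FPKM in cKO libraries, a log2 difference of 0.23 with overlapping groups.

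The remaining non-overlapping members on the lower side had smaller differences. Gm11832, a short antisense RNA with 32 to 47 reads per library, measured 6.84, 6.34 and 6.10 FPKM in WT and 4.47, 5.12 and 4.54 FPKM in cKO libraries (log2 difference -0.38, SE 0.11, limma adjusted p = 0.372). Gm10134, protein coding in GENCODE M21, measured 7.08, 6.21 and 7.82 FPKM in WT and 5.90, 5.81 and 4.93 FPKM in cKO libraries (log2 difference -0.29). Gm17201, antisense to Ankrd52, measured 30.3, 23.8 and 23.4 FPKM in WT and 23.1, 20.95 and 20.6 FPKM in cKO libraries (log2 difference -0.24). Its sign was not kept with trends on length and GC content removed per library, at 0.04. C430049B03Rik and Dnm3os, which are tied to microRNAs, and Norad complete the 9. As given above, the summed Sertoli, stromal and endothelial markers and the 18S share were also lower in every cKO library, and their part in these differences was not tested. In whole testis, fewer cells of a type and less RNA per cell cannot be told apart.

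On the higher side stood Gm16973, Mexis and Gm46430. Gm16973, on chromosome 14 at 56696280 to 56701268, minus strand, measured 4.16, 4.40 and 4.53 FPKM in WT and 5.90, 6.28 and 7.31 FPKM in cKO libraries, 149% of the WT mean. Its log2 difference was 0.48 (SE 0.12, 95% interval 0.21 to 0.75, limma adjusted p = 0.361), and 15.9% of its exon bases are shared with Mphosph8. The WT libraries of Gm16973 were close together and all cKO libraries lay clear above them.

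Mexis, an lncRNA known to amplify expression of the cholesterol exporter gene Abca1 in macrophages, lies on chromosome 4 at 53261356 to 53270232, minus strand. It measured 6.74, 7.62 and 8.65 FPKM in WT and 9.22, 11.4 and 9.91 FPKM in cKO libraries, a log2 difference of 0.37 (SE 0.13, limma adjusted p = 0.379). Abca1, chosen after its values were seen, measured 6.33, 9.21 and 9.85 FPKM in WT and 8.68, 10.7 and 12.4 FPKM in cKO libraries, with overlapping groups and a log2 difference of 0.30 (limma adjusted p = 0.522). Gm46430 measured 5.14, 4.37 and 5.26 FPKM in WT and 5.30, 5.85 and 5.49 FPKM in cKO libraries. Its margin between the groups was small, and its log2 difference of 0.15 was -0.05 with length and GC trends removed.

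**Figure D3:**
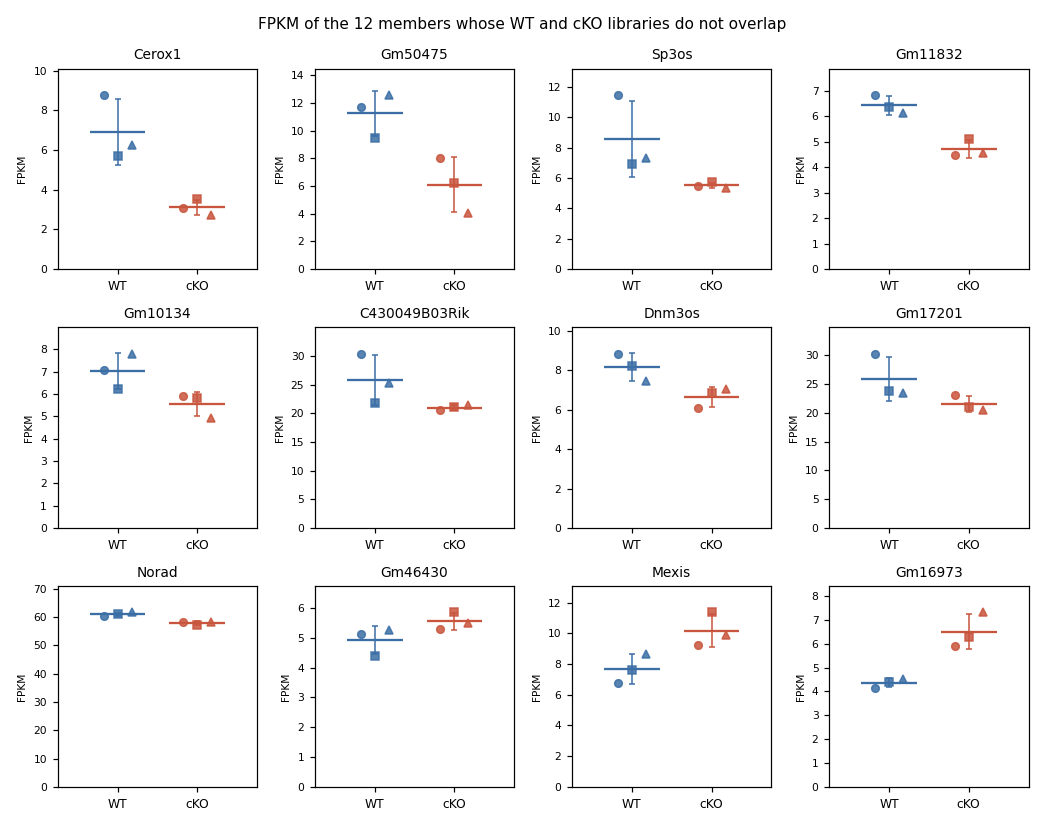
FPKM of the 12 members whose libraries do not overlap between WT (blue) and cKO (red); points are libraries (circle, square and triangle for replicates 1, 2 and 3), long lines means and whiskers SD (n = 3), each panel with its own axis from 0. The gap is wide for Cerox1, at 45.0% of the WT mean, and narrow for Norad, at 94.98%.

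Among the members 10 appear in a list of 63 names of well-studied lncRNAs. Malat1, an abundant nuclear RNA of the speckles where splicing factors gather, measured 31.0, 47.1 and 43.9 FPKM in the WT and 16.7, 29.2 and 33.1 FPKM in the cKO libraries. The highest cKO library lay above the lowest WT library, and the log2 difference was -0.64 (SE 0.26, 95% interval -1.24 to -0.03, limma adjusted p = 0.397). Oip5os1, also called Cyrano and known to direct the decay of the microRNA miR-7, measured 19.2, 25.8 and 26.2 FPKM in WT and 25.2, 27.1 and 33.4 FPKM in cKO libraries (log2 difference 0.26). WT replicate 1 was the low library there, and with length and GC trends removed the log2 difference of Oip5os1 was 0.0056.

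Firre, an X-linked RNA with a role in nuclear organisation, measured 5.66, 8.87 and 9.69 FPKM in WT and 6.97, 7.24 and 7.30 FPKM in cKO libraries, all cKO values falling inside the WT range. Chaserr, which lies upstream of Chd2 and restrains its expression, measured 6.61, 4.16 and 5.67 FPKM in WT and 4.37, 6.23 and 5.80 FPKM in cKO libraries, a log2 difference of 0.01 (95% interval -0.41 to 0.42). Of its exon bases 30.5% are shared with Chd2 on the same strand, so reads there cannot be assigned to Chaserr alone. Bvht, first described in heart development, measured 6.66, 9.46 and 10.1 FPKM in WT and 9.72, 9.01 and 12.7 FPKM in cKO libraries. For these 3 the groups overlapped. The others of the 10, Norad, Epb41l4aos, Zfas1, Dnm3os and Mir22hg, are given with their classes.

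Of the 63 listed names 51 were found in the table, and 22 of these had a mean of at least 1 FPKM. In this list 0 genes passed the adjusted threshold and 3 had an unadjusted p below 0.05 (4.65% of all genes tested higher and 7.68% lower), with a median log2 difference of -0.06, 12 negative and 10 positive. Every cKO library was above every WT library for 4 and below for 2 of the 22, beside 8.69% and 9.92% of all genes tested. The 4 were Tug1, Dubr, Ftx and Lncenc1, none of them a member. Tug1, which the table types as protein coding, measured 16.6, 19.6 and 19.8 FPKM in WT and 21.9, 24.4 and 28.7 FPKM in cKO libraries (log2 difference 0.40). Below a mean of 1 FPKM lay 29 of the listed genes, among them Xist, the X inactivation RNA of female cells, at 0.0315 to 0.0717 FPKM, and Neat1, the scaffold of paraspeckles, at 0.463 to 0.748 FPKM. For 9 of the 29, among them Tsix, Terc and Hottip, the table lists 0 in all 6 libraries. These 9 include Rpph1 and the entry of Rmrp typed as lncRNA, RNAs that every cell uses. An entry of Rmrp typed as ribozyme was left out of the list. A listed 0 is therefore not read as low expression here.

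A group of 6 members hosts snoRNA genes within the same strand, formed here after the values were seen. snoRNAs guide chemical modification of ribosomal RNA and are cut from introns of host transcripts, and many hosts begin with a run of pyrimidines, the 5′TOP element shared with ribosomal protein genes. The hosts were 2410006H16Rik (Snord49a, Snord49b and Snord65), 1110038B12Rik (Snord52 and Gm25744), Zfas1 (Snord12, Gm25878 and Gm23201), Epb41l4aos (Gm23639), Rab26os (Snord60) and AI506816, whose hosted gene is typed as a snoRNA and named Mir3096. All 6 had a negative log2 difference, with a median of -0.52, against 36 of 63 members. Of these hosts, Rab26os reached the limit of 5 FPKM only through WT, with a cKO mean of 3.66 FPKM. Its negative sign is therefore in part set by the choice, and it enters both the count of 6 and the median. No host had non-overlapping groups.

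The bases around the start of 4 of these hosts are shown because they hold that run. Each is 30 bases before to 50 bases from the start of the RefSeq transcript on GRCm38.p6, and capitals mark a C followed by at least 5 further C or T letters that begins within 5 bases of the start on the transcript strand.
2410006H16Rik, chr11:62602847-62602926, plus strand: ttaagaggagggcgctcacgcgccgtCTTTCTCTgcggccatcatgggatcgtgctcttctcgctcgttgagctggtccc
1110038B12Rik, chr17:34952419-34952498, minus strand: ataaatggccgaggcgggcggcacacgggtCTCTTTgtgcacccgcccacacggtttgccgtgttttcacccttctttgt
AI506816, chr5:23712618-23712697, minus strand: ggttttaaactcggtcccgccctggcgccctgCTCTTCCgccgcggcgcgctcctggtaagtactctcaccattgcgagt
Rab26os, chr17:24528221-24528300, plus strand: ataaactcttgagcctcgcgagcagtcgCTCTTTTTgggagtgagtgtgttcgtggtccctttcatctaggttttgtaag
Such a run was found for 4 of the 5 hosts with a promoter in the RefSeq table, for 4 of the 23 other members with one, and in 10.2% of all 32851 promoters. Zfas1 had none in this window. A match describes the letters only.

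In 4 of the 6 hosts WT replicate 1 was the highest and WT replicate 2 the lowest of the WT libraries. 2410006H16Rik measured 98.7, 50.03 and 70.4 FPKM in WT and 51.6, 38.3 and 30.1 FPKM in cKO libraries, a log2 difference of -0.83 (SE 0.27, limma adjusted p = 0.379). Epb41l4aos measured 50.01, 21.9 and 38.4 FPKM in WT and 21.8, 22.2 and 24.1 FPKM in cKO libraries (log2 difference -0.60). Zfas1, antisense to the start of Znfx1, measured 23.6, 12.6 and 22.3 FPKM in WT and 13.7, 13.5 and 13.6 FPKM in cKO libraries (log2 difference -0.44). In Epb41l4aos and Zfas1, WT replicate 2 lay within or below the cKO values while WT replicates 1 and 3 lay clear above them.

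1110038B12Rik showed the same order of the WT libraries, at 26.8, 15.5 and 20.7 FPKM, with 17.1, 14.5 and 13.4 FPKM in cKO libraries (log2 difference -0.44). This order was not seen in AI506816, at 17.5, 23.6 and 24.2 FPKM in WT and 22.0, 18.1 and 21.9 FPKM in cKO libraries. Nor was it seen in Rab26os, which at 13 to 89 reads per library measured 4.55, 3.96 and 10.98 FPKM in WT and 4.01, 5.37 and 1.60 FPKM in cKO libraries. The median of the 6 hosts was -0.31 without WT replicate 1 and -0.81 without WT replicate 2, so its size rests on which WT libraries are used.

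Another group holds microRNA genes, inside the member for Gm2044, Dnm3os and Mir22hg, and downstream on the same strand, within 3000 bases, for C430049B03Rik and Gm53. A microRNA pairs with target messages through its seed, bases 2 to 8, and the mature sequences are shown, from RefSeq on GRCm38.p6, because they are known products of these loci. A selection of arms is given, and miR-7686 in Gm2044, miR-351 beside C430049B03Rik and the remaining arms are not shown. Capitals mark the seed.
miR-202-3p (Gm2044): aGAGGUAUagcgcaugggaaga
miR-202-5p (Gm2044): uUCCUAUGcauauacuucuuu
miR-322-5p (C430049B03Rik): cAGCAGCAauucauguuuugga
miR-503-5p (C430049B03Rik): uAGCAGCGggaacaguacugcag
miR-196a-5p (Gm53): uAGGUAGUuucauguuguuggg
miR-199a-5p (Dnm3os): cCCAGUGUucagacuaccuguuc
miR-199a-3p (Dnm3os): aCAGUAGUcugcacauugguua
miR-214-3p (Dnm3os): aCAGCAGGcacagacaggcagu
miR-22-3p (Mir22hg): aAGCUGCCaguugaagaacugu
No seed was identical between the mature microRNAs of different members. Mature microRNAs were not measured by these libraries.

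Gm2044, whose exon holds Mir202, a microRNA gene known for expression in the gonads, lies on chromosome 7 at 139957005 to 139958039, minus strand. It measured 44.7, 31.8 and 42.3 FPKM in WT and 27.1, 36.1 and 26.8 FPKM in cKO libraries. The groups overlapped through WT replicate 2 and cKO replicate 2, and the log2 difference was -0.39 (SE 0.17, 95% interval -0.79 to 0.01, limma adjusted p = 0.407).

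C430049B03Rik, on chromosome X at 53055046 to 53057190, minus strand, ends 719 bases before the mature miR-322-5p. It measured 30.4, 21.8 and 25.3 FPKM in WT and 20.6, 21.04 and 21.4 FPKM in cKO libraries, with a log2 difference of -0.27 (SE 0.14, limma adjusted p = 0.442). The cKO libraries were nearly equal and WT replicate 2 lay just above them.

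Dnm3os, from the strand opposite to Dnm3 on chromosome 1 at 162217623 to 162225550, measured 8.86, 8.21 and 7.46 FPKM in WT and 6.07, 6.86 and 7.04 FPKM in cKO libraries (log2 difference -0.26, SE 0.11, limma adjusted p = 0.406). With length and GC trends removed it stood at -0.59. Gm53 measured 6.07, 9.89 and 9.94 FPKM in WT and 6.14, 6.43 and 7.79 FPKM in cKO libraries, WT replicate 1 being the lowest of the 6. Mir22hg measured 8.14, 4.89 and 6.34 FPKM in WT and 6.45, 8.82 and 7.26 FPKM in cKO libraries, with a log2 difference of 0.20 and groups that overlapped widely.

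**Figure D4:**
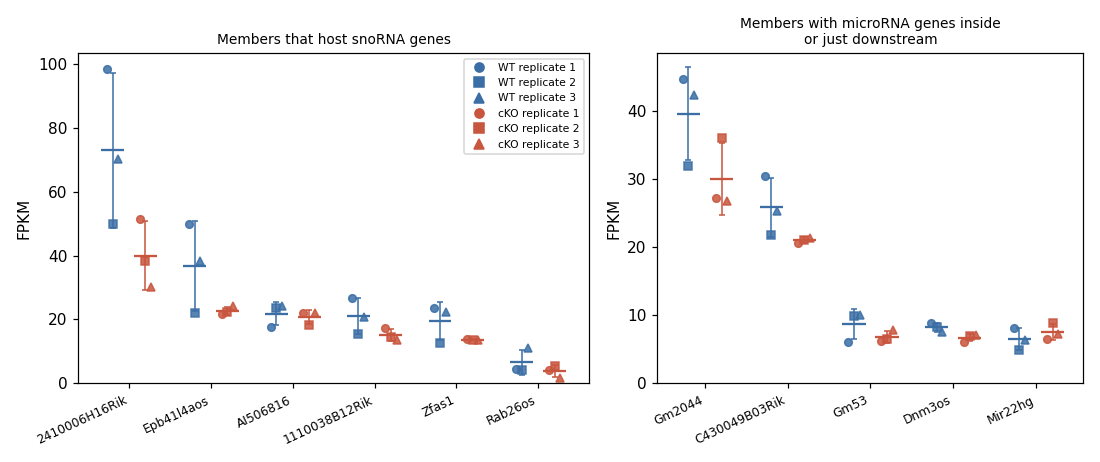
FPKM of the 6 members hosting snoRNA genes (left) and the 5 members with microRNA genes inside or downstream (right); points are libraries, lines means and whiskers SD (n = 3). WT replicate 2 (blue square) lies near the cKO libraries for Epb41l4aos, Zfas1 and 1110038B12Rik, and C430049B03Rik and Dnm3os are the members shown without overlap.

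Of the 62 located members, 22 start within 5 kb of the start of a protein-coding gene. In 13 pairs the genes diverge from each other, with starts 16 to 3678 bases apart and 12 of the 13 within 500 bases. A further 6 overlap the neighbour head to head on the opposite strand and 3 lie on its strand. Among the 22 neighbours 0 passed the adjusted threshold and 1 had an unadjusted p below 0.05, beside 0.014% of all genes for the first, and 4.65% higher and 7.68% lower for the second. The groups did not overlap for 2, both lower in cKO, beside 9.92% of all genes. Their log2 differences ran from -0.37 to 0.23, with a median of -0.02, and those of the 22 members from -0.93 to 0.95. The sign was the same in 9 pairs and opposite in 13.

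The next pairs were chosen after their values were seen. Gt(ROSA)26Sor, the lncRNA of the locus used to carry transgenes in mice, starts 32 bases from Setd5, a gene of a SET domain protein. It measured 12.7, 9.81 and 10.1 FPKM in WT and 12.3, 18.2 and 16.99 FPKM in cKO libraries, a log2 difference of 0.49 (SE 0.17, limma adjusted p = 0.379). cKO replicates 2 and 3 were above all WT libraries and cKO replicate 1 was within them. Setd5 measured 11.9, 21.2 and 18.2 FPKM in WT and 20.05, 16.3 and 20.04 FPKM in cKO libraries.

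Gm42047, divergent from Klhdc4 at 3678 bases, measured 4.84, 4.22 and 8.47 FPKM in WT and 6.01, 10.9 and 16.3 FPKM in cKO libraries (log2 difference 0.77, SE 0.34). Klhdc4, a kelch domain gene, measured 11.9, 7.792 and 8.14 FPKM in WT and 7.788, 6.64 and 6.197 FPKM in cKO libraries, and its groups were barely separated (log2 difference -0.37). Pik3r2, a regulatory subunit gene of PI3 kinase that starts 102 bases from 2010320M18Rik, was the other neighbour without overlap, at -0.30, beside -0.17 for the lncRNA.

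**Figure D5:**
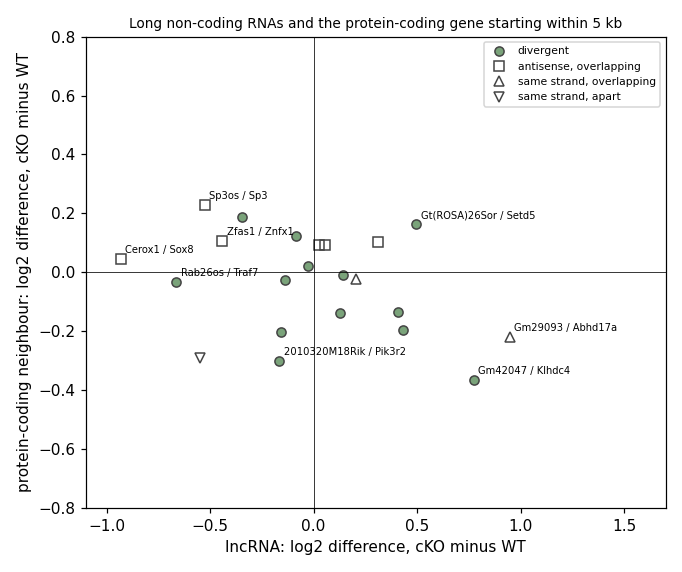
Log2 difference (cKO minus WT) of the 22 members that start within 5 kb of a protein-coding gene (x axis) and of that gene (y axis); each point is a pair and its shape gives the orientation. The lncRNAs spread from -0.93 to 0.95 and the neighbours from -0.37 to 0.23, with 9 pairs of the same sign.

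Several of the largest differences belonged to members with overlapping groups, named here after their values were seen. Gm29093, an intronic RNA within Abhd17a, measured 4.30, 10.5 and 5.998 FPKM in WT and 15.9, 9.43 and 16.3 FPKM in cKO libraries, a log2 difference of 0.95 (SE 0.30, limma adjusted p = 0.378). It rests on 28 to 111 reads per library, and WT replicate 2 was above cKO replicate 2. Gm49980, on chromosome 18, measured 7.81, 9.22 and 4.41 FPKM in WT and 4.51, 2.59 and 3.31 FPKM in cKO libraries (log2 difference -0.84, SE 0.25, limma adjusted p = 0.372). There WT replicate 3 lay just below cKO replicate 1. Gm49980, at means of 7.14 FPKM in WT and 3.47 FPKM in cKO, reached the limit only through WT. Its difference is therefore in part set by the choice.

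The spread between libraries of a group was larger for members than for genes at large. The median coefficient of variation was 21.6% in WT and 16.0% in cKO libraries for the members, against 15.8% and 12.4% for all genes tested. It was largest in WT for 1700054O05Rik, at 69.2%, with 14.05, 5.37 and 4.09 FPKM. In the cKO group it was largest for Gm10076, at 63.4%, with 23.9, 74.0 and 30.6 FPKM, and for Erdr1, at 62.5%, with 5.42, 6.91 and 16.5 FPKM. Erdr1 lies in the pseudoautosomal region of the sex chromosomes. WT replicate 1 was the highest library for 20 of 63 members and the lowest for 16, and cKO replicate 1 was the highest for 0, against 8.57% of all genes.

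Short members had a lower median difference than long ones. The 21 members under 1000 bases had a median log2 difference of -0.35, with 16 negative, and the 42 others a median of 0.01, with 20 negative. Among the short ones Gm11832, Gm15389, 4930579G18Rik and Rab26os, all negative, reached the limit of 5 FPKM only through WT. Their cKO means were 4.71, 4.65, 3.89 and 3.66 FPKM. The 4 members that reached it only through cKO were all longer, so this contrast is in part set by the choice. Over all genes tested the medians were -0.09 for 1546 genes under 1000 bases and 0.01 for 12692 longer genes. The median of the short members was -0.19 without WT replicate 1 and -0.20 with length and GC trends removed. The class was formed after the values were seen and was not tested. It holds 3 of the 6 snoRNA hosts, 2410006H16Rik, Epb41l4aos and Rab26os.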

How the data were processed

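Bulk RNA-seq of 3 WT and 3 cKO testis libraries was analysed. The authors deposited a gene table in FPKM. The submitters' processing notes name the builds GRCm38 and mm10, while no source used here gives the aligner, counter or strand setting. Whole reads were recovered from the FPKM values (tolerance 0.01 reads). The main test ran limma 3.58.1 in R 4.3.3 on log2(FPKM + 1), with the prior variance trended on mean level, over genes with a mean of at least 1 FPKM, with Benjamini-Hochberg adjustment over all of them. Fold differences of low genes are understated on this scale.

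Gene positions came from GENCODE M21 (GRCm38) by gene identifier, since the table's own positions are of another build and were not printed. Sequences came from RefSeq (GRCm38.p6), with a promoter for 28 of 63 members. Members named were the 15 highest, those without overlap (at most 10 per direction), those in the well-studied list, those at the limit and the neighbours of the non-overlapping ones. Others are said to be chosen after their values were seen, as are Gm53, the snoRNA hosts and the most variable members. The members and lists were chosen with earlier results of these data known. Alternatives covered scaling, pseudocount, filter, test, length and GC trends, member limit and each library left out. The test was checked on simulated data.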

Additional observations from a re-analysis of the deposited data

How the results depend on the processing

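No member passed the adjusted threshold under any of the 18 settings applied to every result or the 4 on the choice of members, and the lowest adjusted p of a named member was 0.154 (limma). Of 360 alternatives for named members 353 kept the direction. The exceptions were 0.037 for Gm17201, -0.052 for Gm46430 and -0.24 for Chaserr with length and GC trends removed, 0.0098 for Firre without WT replicate 3, and -0.15, -0.081 and -0.037 for Chaserr without WT replicate 2, cKO replicate 2 and cKO replicate 3. Chaserr was at -0.15 to 0.133 over the libraries left out. The causes were not tested. Of 218 alternatives for summary values 201 stayed close to the value given. The count of non-overlapping members, 3 higher and 9 lower, was 0 and 3 at a limit of 10 FPKM and 13 and 21 at 2 FPKM, where fewer or more members enter. It was 8 higher on the TPM scale, 5 higher with limma voom and 3 lower among members sharing no exon bases. Leaving out each library in turn, which leaves fewer libraries to overlap, gave 3 to 12 higher and 10 to 17 lower. For none of these settings is the share over all genes given, so the moved counts are not read as a trait of the members. The median difference of the members was 0.00153 at a limit of 2 FPKM, and that of the well-studied list was -0.072 to 0.015 when each library was left out, 0.015 being without WT replicate 1.

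Same-numbered libraries did not consistently deviate together, with correlations of 0.0948, -0.33 and 0.39 for replicates 1, 2 and 3. Correlations of differently numbered libraries ran from -0.45 to 0.35, so the numbers were not taken to pair the libraries. With a replicate block the member median was -0.07 and 0 members were called. Members covered by few reads, such as Rab26os with 13 in 1 library, are limited by counting error.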
